A study of Mus musculus with 6 samples.

Results

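The immunoglobulin and B cell genes described here are 10 genes of the B cell lineage and its surroundings, measured by 16 of the 45281 probes of an Illumina mouse bead array: the antibody chain genes Igk-C (kappa constant region), Igh-6 (the mu heavy chain, Ighm in RefSeq) and Igl-V1 (a lambda variable segment), the B cell genes Cd79b, Fcmr, Pou2af1, Cd22 and Ms4a1, the chemokine gene Cxcl13 and the leukocyte surface gene Cd52. All probes annotated with 1 of these symbols were taken. The genes were chosen by their log2 levels, which stood out on a single array, that of B29-treated islets of 100 to 200 µm, so their levels there are a description and carry no test. The data are pancreatic islets of BALB/c mice that were given, from 2 weeks of age, 4 intraperitoneal doses of 25 µg (100 µg in total) of either a control mAb (IgG) or the serpin B13 mAb, clone B29. Islets were isolated when the mice were 5 weeks old (2 weeks past the final dose) and sorted by diameter into classes of under 100, 100 to 200 and over 200 µm. Each treatment and class went onto 1 array, which gives 6 groups of 1 array. The labels do not say how many mice stand behind an array, or whether mice were shared between the diameter classes. The clone name B29 is also listed in RefSeq as a synonym of Cd79b, and the antibody and the gene share only that name.

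B cells carry an antibody on their surface, made of paired heavy and light chains, and signal through it by way of the CD79A and CD79B proteins. Naive B cells use the mu and delta heavy chains with a kappa or, in mice less often, a lambda light chain. Transcription of antibody genes depends on an octamer sequence that the POU factors OCT1 and OCT2 bind together with their coactivator, the product of Pou2af1. CXCL13, made by stromal and follicular dendritic cells of lymphoid tissue, attracts B cells that carry its receptor CXCR5. Islets of healthy young mice consist mainly of endocrine cells with vessels and a few resident immune cells, chiefly macrophages.

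Promoters of 4 of the 10 genes, Fcmr, Cxcl13, Cd22 and Pou2af1, were present in the RefSeq table (assembly GRCm38.p6) and were searched on both strands over the 250 bases before the start of the gene. The octamer ATGCAAAT was found in 0 of these 4 and in 526 (1.6%) of 32851 promoters. Its 7-base core TGCAAAT, which lies within the octamer, was found in 1 of the 4 and in 1171 (3.56%) of all promoters, and the TATA box TATAAA in 1 of the 4 and in 4063 (12.4%). The core and the TATA box were added to the search after the data were seen. The promoters with a match are shown with that match in capitals, and the promoter of Fcmr, a gene with a large difference and no match, is shown beside them. The Pou2af1 window is chr9:51213440-51213689 (plus strand), with the core starting at position -231 from the gene's start, on the plus strand. That of Cxcl13 is chr5:95956689-95956938 (plus strand), with the TATA box starting at -46 on the plus strand, and that of Fcmr is chr1:130865527-130865776 (plus strand).
Pou2af1: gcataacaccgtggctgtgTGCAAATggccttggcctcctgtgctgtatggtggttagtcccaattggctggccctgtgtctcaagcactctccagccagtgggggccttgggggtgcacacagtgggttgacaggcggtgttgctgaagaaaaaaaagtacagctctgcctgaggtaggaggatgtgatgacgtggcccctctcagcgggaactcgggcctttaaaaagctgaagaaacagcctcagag
Cxcl13: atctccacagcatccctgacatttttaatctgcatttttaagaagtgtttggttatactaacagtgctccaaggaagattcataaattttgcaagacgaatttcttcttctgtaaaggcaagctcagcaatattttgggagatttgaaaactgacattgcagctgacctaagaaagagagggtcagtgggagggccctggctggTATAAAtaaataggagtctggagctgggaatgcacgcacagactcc
Fcmr: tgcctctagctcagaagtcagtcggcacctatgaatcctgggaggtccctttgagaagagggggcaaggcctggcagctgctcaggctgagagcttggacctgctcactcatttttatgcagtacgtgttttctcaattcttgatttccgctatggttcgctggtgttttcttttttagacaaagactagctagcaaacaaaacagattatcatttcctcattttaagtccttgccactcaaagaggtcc

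Levels are the authors' background-corrected and quantile-normalized log2 values, and a probe counts as detected on an array where its deposited detection p was under 0.05. Each array detected 14800 to 15914 probes (32.7% to 35.2%), and arrays correlated pairwise at 0.951 to 0.985 over the probes. Endocrine genes were detected on every array (9 of 10 on each). The B29 array of 100 to 200 µm was not set apart over all probes: it correlated at 0.973 to 0.985 with the other 5, and 467 of the 18891 probes detected anywhere (2.47%) were detected on it alone, against 195 to 555 on each other array. The 16 probes did set it apart. Of them 12 were detected on that array, against 3 on the IgG array under 100 µm and 2 on each of the remaining 4. In genes, 9 of the 10 were detected there and 2 or 3 on each other array. With detection p under 0.01 the counts were 9 there and 0 to 2 elsewhere. Of the 12 probes detected on any array, 9 were detected on that array alone, where the share over all probes detected on any array was the 2.47% above. The genes were chosen for that array, so nothing is read from this share.

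**Figure D1:**
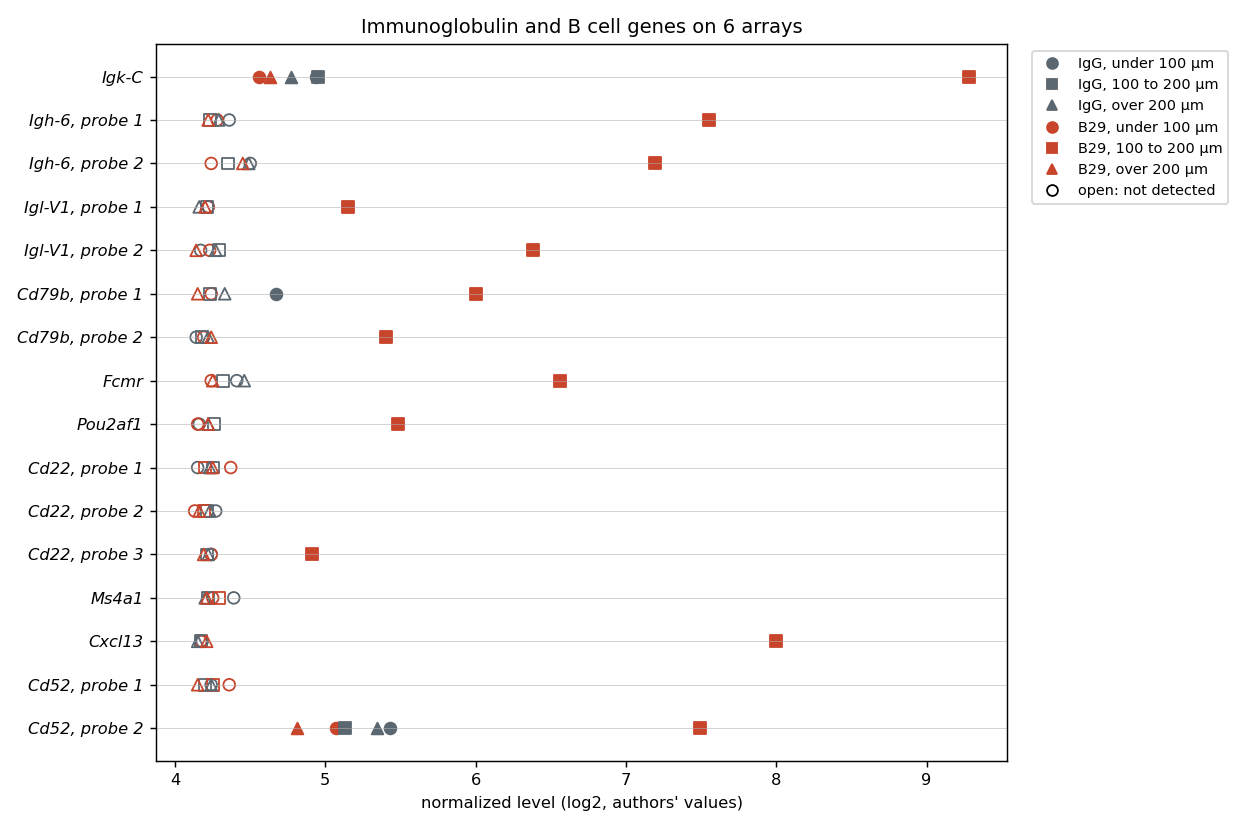
Normalized log2 level (horizontal axis) of each of the 16 probes on the 6 arrays, with 1 point per array. Colours give the treatment, shapes the diameter class, and open points were not detected. For 12 probes the red square, the B29 array of 100 to 200 µm, lies to the right of every other array, while the probe of Ms4a1, 1 probe of Cd52 and 2 of Cd22 were open on all 6.

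Among the antibody chains, the kappa probe was the only one detected on both arrays of the 100 to 200 µm class. Igk-C, whose constant region is shared by every kappa light chain, had log2 levels of 4.94 (IgG) and 4.56 (B29) in islets under 100 µm, 4.95 and 9.28 in those of 100 to 200 µm, and 4.77 and 4.63 in those over 200 µm. The B29 array of 100 to 200 µm stood far above the other 5, which ranged from 4.56 to 4.95 (mean 4.77, SD 0.18, n = 5 arrays of different groups), and the IgG and B29 arrays of the other classes lay close together. Igk-C was detected on all 6 arrays, so its 20.2-fold difference within the class is measured on both sides. Its raw intensity was 783 there and 79.1 to 89.6 elsewhere. The size of the difference depends on the background correction: the log2 ratio was 4.33 in the authors' values and 2.94 without it.

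The heavy chain gene Igh-6 had 2 probes, and both were detected on the B29 array of 100 to 200 µm alone. The first stood at 4.36, 4.28, 4.23, 7.55, 4.29 and 4.22 on the arrays in the order IgG then B29 of each class from small to large. The second stood at 4.50, 4.24, 4.35, 7.19, 4.49 and 4.45. On the other 5 arrays neither probe was detected. A probe that is not detected has only an upper limit, so its fold is given as "at least", against the higher of its own level and the lowest level of any detected probe on that array. By that measure the 2 probes of Igh-6 were at least 8.37-fold and 6.50-fold brighter with B29 than with IgG in the class.

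Both probes of Igl-V1, a variable segment of the lambda light chain, followed the same order. One reached 6.38 and the other 5.15 on the B29 array of 100 to 200 µm, at least 3.71-fold and 1.58-fold above the IgG array, and neither was detected on another array. The probes of this gene thus disagreed in size and not in order.

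A further 29 probes carried the names of other immunoglobulin genes, nearly all variable segments, and 4 of them were detected on the B29 array of 100 to 200 µm, against 2 on the B29 array under 100 µm, 1 on the B29 array over 200 µm and 0 on the 3 IgG arrays. The kappa variable segments Igkv14-100 (5.39, others 4.20 to 4.32) and Igkv6-23 (4.95, others 4.15 to 4.24) were the clearest of these. Igkv1-110 (4.53) and another kappa variable segment (4.61) were near the detection floor of 4.47, and the latter was also detected on the B29 array under 100 µm (4.49). All detections on the B29 arrays under 100 and over 200 µm had a detection p of 0.047 to 0.0481, just under the cutoff of 0.05. Over all probes, 32.7% to 35.2% were detected on each array. Each variable segment is used by a share of B cells only, whereas the constant regions are read in all cells that use that chain.

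The genes of the B cell surface and of B cell transcription had smaller differences and were mostly undetected elsewhere. Cd79b, the signalling partner of the antigen receptor, had 2 probes. The first stood at 4.67, 4.24, 4.23, 6.00, 4.33 and 4.15 and was detected on the IgG array under 100 µm as well as on the B29 array of 100 to 200 µm, where it was at least 2.84-fold above IgG. The second reached 5.40, with the others at 4.14 to 4.24, and was at least 1.88-fold above IgG. Fcmr, the receptor for the Fc part of IgM, stood at 4.41, 4.24, 4.32, 6.56, 4.46 and 4.25 and was detected on the B29 array of 100 to 200 µm alone, at least 4.19-fold above IgG. Pou2af1, the octamer coactivator whose promoter is shown above, stood at 4.16, 4.15, 4.26, 5.48, 4.22 and 4.22, at least 1.99-fold above IgG and again detected on that array alone.

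Cd22, an inhibitory coreceptor of B cells, was at the limit of detection. Of its 3 probes, 1 was detected, on the B29 array of 100 to 200 µm alone (4.91, others 4.19 to 4.24, at least 1.34-fold above IgG), and 2 were detected on no array. Ms4a1, which encodes the B cell marker CD20, was not detected on any array: its single probe stood between 4.20 and 4.39, with raw intensities of 71.3 to 76.7 and detection p-values of 0.0919 to 0.535. A level under the detection floor is a limit of these arrays and does not show that the transcript was absent.

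Cxcl13, the B cell chemokine, had a log2 ratio of 3.83 in the class, on an IgG array where it was not detected. Its level was 4.18, 4.17, 4.17, 8.0, 4.15 and 4.21, and its raw intensity 359 on the B29 array of 100 to 200 µm against 70.2 to 71.8 on the other 5. It was detected on no other array, and was at least 11.4-fold above IgG. Cxcr5, the gene of its receptor, was not detected on any array (4.21 to 4.42).

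Cd52, a small glycoprotein anchored on lymphocytes and other leukocytes, was the other gene detected on all 6 arrays. Its brighter probe stood at 5.43, 5.07, 5.13, 7.49, 5.34 and 4.81, a measured 5.11-fold difference in the 100 to 200 µm class, and its second probe was detected on no array. The order outside that class was the opposite, with B29 below IgG by 0.36 under 100 µm and by 0.53 over 200 µm on the log2 scale, each from 1 array against 1.

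In counts, 10 of the 12 probes of these genes detected on either array of the 100 to 200 µm class were at least 2-fold brighter with B29 on the normalized values as they stood, in 8 of the 10 genes, and none was 2-fold dimmer. Of the 17011 probes detected in the class, 88 (0.517%) passed 2-fold upwards and 10 (0.0588%) downwards. With values not detected put at their limit, as for the folds above, 8 probes of 7 genes were at least 2-fold brighter, against 76 (0.447%) of all probes. Without background correction 5 of the probes were, and the log2 ratios ran from 0.27 (Cd22) to 2.94 (Igk-C), with 1.74 and 1.41 for Igh-6, 2.14 for Cxcl13, 1.36 for Cd52, 0.99 for Fcmr and 0.45 for Pou2af1. The genes were picked for this contrast, so nothing is read from their share. The median log2 ratio was 2.16 over the 12 probes (0.70 to 4.33) and -0.012 over all probes. The members just outside the 2-fold line were the Igl-V1 probe at 0.94 and Cd22 (0.70). Pou2af1 (1.22) and the second Cd79b probe (1.22) were just inside it on the values as they stood, and just outside it (at least 1.99-fold and 1.88-fold) with IgG at its limit. Against all 5 other arrays at once, 35 of 18891 probes (0.185%) were at least 2-fold higher on the B29 array of 100 to 200 µm, 10 of them from these genes (29 probes or 0.154%, 8 of them from these genes, with values not detected at their limit). On the other arrays the same count, on the values as they stood, was 15 for B29 under 100 µm, 1 for IgG under 100 µm and 0 for the remaining 3. Because that array is the only one of its treatment and class, B29 treatment, the islet preparation and the array itself cannot be told apart there. In whole-islet RNA, more B cells and more RNA per cell cannot be told apart either.

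**Figure D2:**
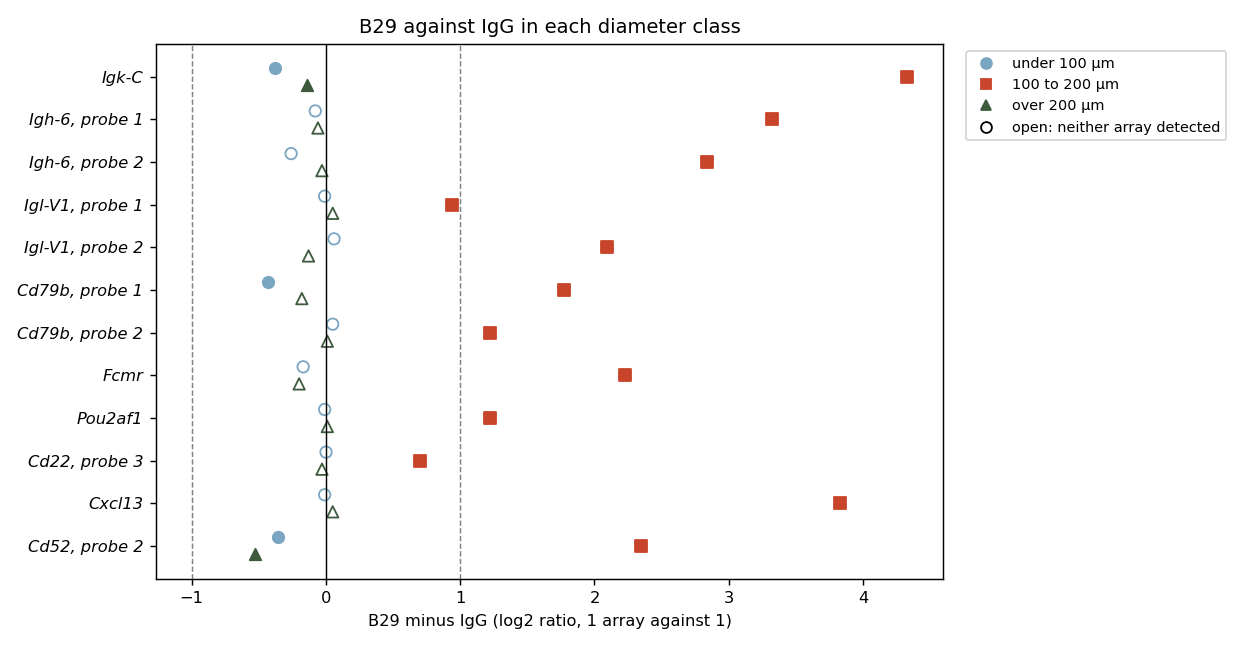
Log2 ratio of B29 to IgG (horizontal axis, 1 array against 1) in each diameter class for the 12 probes detected in the 100 to 200 µm class. Dashed lines mark 2-fold, and open points were detected on neither array. The squares of the 100 to 200 µm class run from 0.70 to 4.33, while the filled points of the other classes lie between -0.53 and -0.14.

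The 4 arrays outside the 100 to 200 µm class were among those that the B29 array of that class stood out from. They thus took part in the choice of genes, so the fit of treatment there is not an independent test. No conclusion is drawn from it. Under 100 µm 3 probes were detected on either array (Igk-C, Cd79b and Cd52), and B29 was the lower in all 3, by log2 ratios of -0.43 to -0.36. The -0.43 is that of Cd79b, which was not detected with B29, so IgG was at least 1.15-fold higher. The second Cd79b probe was detected on neither array. Over 200 µm 2 were detected (Igk-C and Cd52), at -0.14 and -0.53. None was 2-fold apart, where the share of probes past 2-fold was 0.37% upwards and 0.194% downwards under 100 µm, and 0.193% and 0.708% over 200 µm. A limma fit of the 4 arrays with treatment and class as factors gave log2 ratios of B29 to IgG of -0.26 (SE 0.18) for Igk-C, with means of 4.59 and 4.85, and of -0.44 (SE 0.17) for Cd52, with means of 4.94 and 5.39. Neither passed after Benjamini-Hochberg adjustment in limma (adjusted p = 0.95 for each), and Cd52 had an unadjusted limma p of 0.0347. Cd79b entered the filter through the B29 array of 100 to 200 µm and was detected on 1 of the 4 arrays, so no test of it is given. Over all 16774 probes tested 0 (0.0%) passed, while 823 (4.91%) had an unadjusted limma p under 0.05.

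The same genes were compared between islet sizes. Between islets over 200 µm and under 100 µm, limma's additive fit of all 6 arrays gave log2 differences of -0.05 (SE 0.92) for Igk-C and -0.18 (SE 0.57) for Cd52, with adjusted p of 0.996 and 0.951. Neither passed, while over all probes 89 of 16774 (0.531%) passed and 1750 (10.4%) had an unadjusted p under 0.05. The standard errors include the departure of the 100 to 200 µm arrays, on which the genes were chosen, from an additive fit. Without the B29 array of 100 to 200 µm the differences were the same (-0.05 and -0.18). The remaining arrays were those it stood out from, so this fit does not leave the choice out. Leaving out 1 of the arrays under 100 or over 200 µm moved the value for Igk-C between -1.29 and 1.19. In those fits the treatment factor rests partly on the 100 to 200 µm pair, on which the genes were chosen. Nothing is therefore read from this range. The levels of Igk-C under 100 and over 200 µm were 4.94 and 4.77 with IgG, and 4.56 and 4.63 with B29. Averaged over the 3 classes, for description only, the log2 ratio of B29 to IgG was 1.27 for Igk-C and 0.49 for Cd52. These averages rest on the 100 to 200 µm class, since the ratios of the other classes were below 0. Over all 16774 probes 1 (0.00596%) passed limma in that contrast, and no test of the chosen genes is given for it.

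Other genes of the B cell lineage, from a list that holds 13 named genes besides those above, were also found on the B29 array of 100 to 200 µm. There 8 of the 13 were detected, against 0 on the IgG array of the class and 1 on each other array by the list's count. Over all probes, 35.0% were detected on the B29 array of 100 to 200 µm. With values not detected at their limit, 1 of the 13 was at least 2-fold brighter than with IgG. The 8 were Blk, Vpreb3, Fcer2a, Cd72, Fcrla, Tnfrsf13c, Spib and Cd37, named because they were detected there. Cd72, an inhibitory B cell receptor, stood at 5.52 with the others at 4.26 to 4.54 (at least 2.04-fold above IgG), and Fcrla, an Fc receptor-like protein of B cells, at 5.33 (at least 1.79-fold). Tnfrsf13c, the receptor for the B cell survival factor BAFF, stood at 4.95 (at least 1.37-fold), and Fcer2a at 4.97 (at least 1.4-fold). Vpreb3, Cd37, Blk and Spib were nearer the detection floor, at 4.88, 4.86, 4.70 and 4.59. They were at least 1.31-fold, 1.29-fold, 1.16-fold and 1.07-fold above IgG. Cd72 and Fcer2a were each detected on 3 arrays. Not detected on any array were Ms4a1, the transcription factors Pax5 and Ebf1, the complement receptor Cr2, the adaptor Bank1 and Cxcr5. Cd79a was not analysed here. The 18 B cell genes with a probe include 5 of the genes chosen for that array, so nothing is read from their combined values. Their summed linear level was 341 to 357 on 5 arrays and 610 on the B29 array of 100 to 200 µm. The median log2 ratio over the 12 detected in the class was 0.77, beside -0.012 over all probes.

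Plasma cell genes were mixed. Mzb1, a chaperone of antibody-making B cells and plasma cells, stood at 5.79 on the B29 array of 100 to 200 µm and at 4.24 to 4.54 on the others, at least 2.46-fold above IgG, and Irf4 at 4.55 was just detected. Xbp1 and Derl3, which serve the secretory pathway also in endocrine and acinar cells, were detected on all arrays with log2 ratios of -0.23 and -0.18 in the class. Jchain (4.17 to 4.24), Prdm1 and Tnfrsf17 were not detected on any array. Of the 10 other genes of a B cell receptor signalling list with a probe, 8 were detected on the B29 array of 100 to 200 µm and 4 to 6 on the others, and 0 were 2-fold brighter. Its members detected on all 6 arrays, Vav1 (4.76 in IgG, 5.25 in B29), Plcg2 (5.06, 5.40), Ptpn6 (7.14, 7.44) and Cd81 (9.10, 9.24), had log2 ratios of 0.49, 0.33, 0.30 and 0.15.

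Markers of other cells moved in part with these genes. MHC class II genes, which B cells, macrophages and dendritic cells use to present antigen, had a median log2 ratio of 1.10 over the 8 detected in the class. Of 11 with a probe, 6 were at least 2-fold brighter (5 with IgG at its limit where not detected). Their summed level was 1690 against 636 to 766 on the other 5 arrays. H2-Ea (7.49 in IgG, 8.91 in B29), H2-Ab1 (6.04, 7.35), H2-Eb1 (6.61, 7.90) and Cd74 (8.08, 9.15) were detected on every array. H2-Aa (4.15 to 4.22) and Ciita were detected on none, and H2-Ob on the B29 array under 100 µm alone (4.59). Of 11 pan-leukocyte genes besides Cd52, 9 were detected on the B29 array of 100 to 200 µm and 5 or 6 elsewhere. In the class 4 were at least 2-fold brighter: Coro1a, Laptm5, Arhgdib and Cytip, at log2 ratios of 1.71, 1.46, 1.33 and 1.27. Cytip was nearly as high under 100 µm (5.03 in IgG, 5.36 in B29) as on the B29 array of 100 to 200 µm (5.55). Ptpn6 and Ly6e had log2 ratios of 0.30 and -0.03, and Ptprc and Cd48 were not detected on any array. The macrophage list had a summed level of 851 against 374 to 483, with 9 of 12 genes detected against 5 to 8. Its members past 2-fold were the lysozyme genes Lyz1 (7.09 in IgG, 8.91 in B29) and Lyz2 (4.79, 6.02), while C1qa, C1qb, C1qc and Csf1r had log2 ratios of 0.15, 0.35, -0.02 and 0.22. Lysozyme is also made by Paneth cells and some granulocytes.

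Of 13 T cell genes 2 were detected on the B29 array of 100 to 200 µm and 2 or 3 on each other array. Cd8b1 (9.38 in IgG, 9.17 in B29 of the class) and Thy1 (5.66, 5.86) were detected on all 6 arrays, at log2 ratios of -0.21 and 0.20. The 9 detected on none include Cd3d, Cd3g, Cd4 and Cd8a. Cd3e was detected on the B29 array under 100 µm alone (4.51). The NK cell list had 1 of 6 genes detected on every array (Prf1, log2 ratio 0.83 in the class), the dendritic cell list 2 of 8 on the B29 array of 100 to 200 µm and 0 to 2 elsewhere, and the neutrophil list 0 of 6 on any. Acinar cell genes, which mark exocrine tissue left on the islets, were detected throughout (14 or 15 of 15) and had a median log2 ratio of 0.52 in the class, with 2 of 15 at least 2-fold brighter. Their summed level was 25100 in IgG and 35000 in B29 islets of 100 to 200 µm, and 106000 and 123000 in the islets under 100 µm. Over 200 µm it was 16900 in IgG and 1590 in B29, with a median log2 ratio of -3.29. Endothelial and endocrine genes had median log2 ratios of 0.06 and -0.01. The part of any of these cells in the B cell gene levels was not tested.

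**Figure D3:**
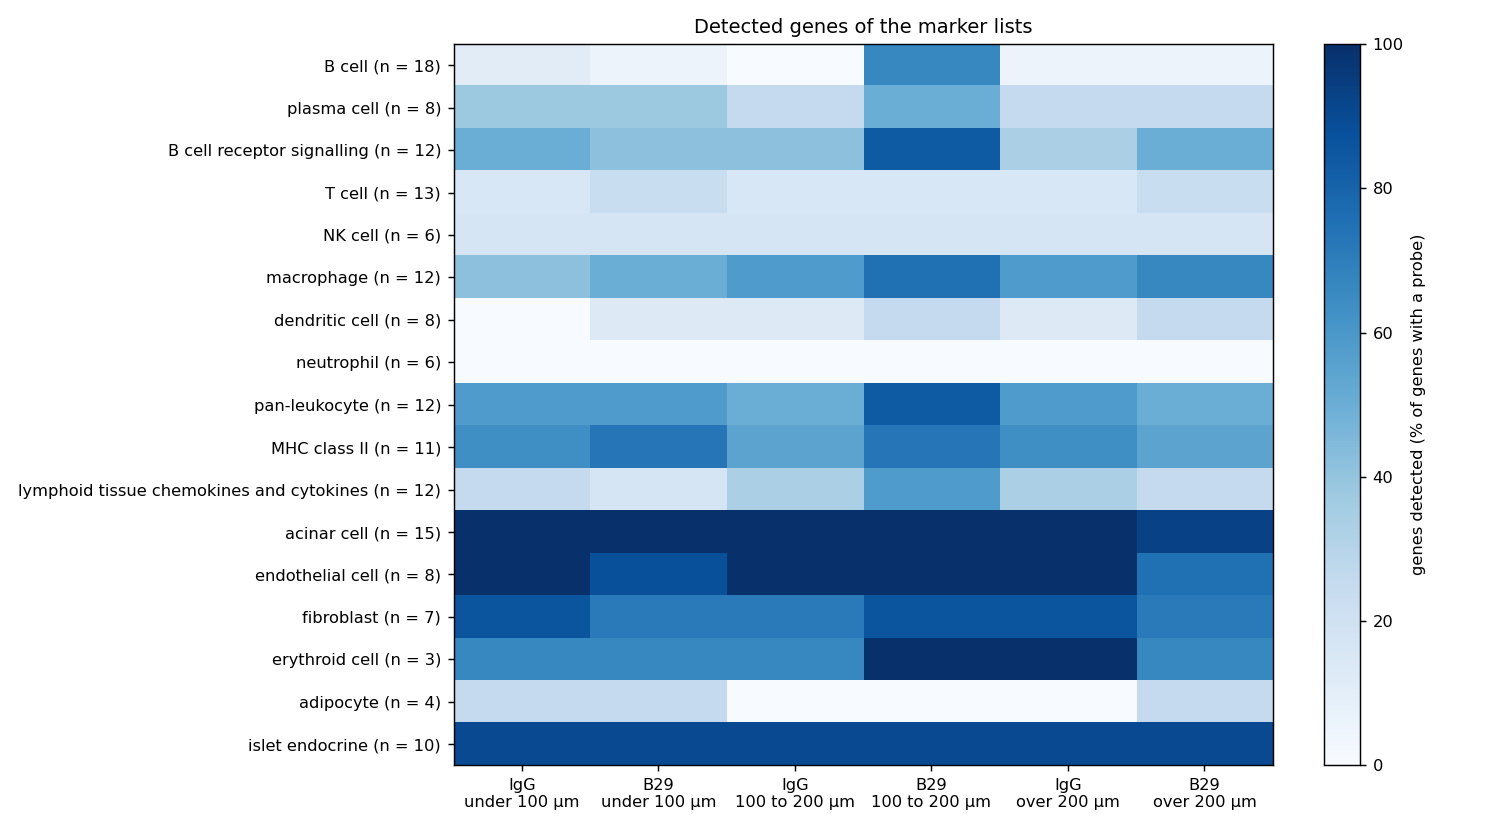
Share of the genes of each marker list that were detected (colour, percent of the genes with a probe, any probe with detection p under 0.05) on each of the 6 arrays. The B cell row holds 12 of 18 genes on the B29 array of 100 to 200 µm and 0 to 2 on the others, while the T cell row holds 2 or 3 of 13, the NK cell row 1 of 6 and the neutrophil row 0 of 6 on each array. Of the 18 B cell genes, 5 are among those chosen for the B29 array of 100 to 200 µm.

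Among organizers of lymphoid tissue, Cxcl13 stood alone in size. Of 11 other chemokine, cytokine and homing genes of this kind with a probe, 6 were detected on the B29 array of 100 to 200 µm and 2 to 4 elsewhere, and 0 were 2-fold brighter. Ccl19, a chemokine for T cells and dendritic cells, stood at 4.62 in IgG and 4.99 in B29 (log2 ratio 0.37). Ltb, which encodes lymphotoxin beta, was detected on that array alone (4.68, at least 1.14-fold). Tnfsf13b, the gene of BAFF, had a ratio of -0.07 and Cxcl12 of -0.08.

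The named genes whose profile over the 6 arrays was most like that of Igk-C were sought among 709 probes of 675 genes detected on at least 2 arrays with a range of at least 1 log2 unit. The 8 closest were Cd74 (Pearson r 0.9977), Mfge8 (0.9927), Lyz2 (0.992), Arhgdib (0.9899), Coro1a (0.9889), H2-Ab1 (0.9844), H2-DMb2 (0.9803) and Mzb1 (0.9802). Mfge8 encodes a secreted protein that tags dying cells for uptake. The probe with this r was at 7.40 to 7.59 on 5 arrays and 8.90 on the B29 array of 100 to 200 µm. A brighter probe of Mfge8 was at 8.97 to 9.79 on the same 5 arrays and 11.12 on the B29 array of 100 to 200 µm. The likeness rests on that 1 array: over the other 5, r with Igk-C was 0.65 for Cd74, 0.26 for Mfge8, 0.37 for Lyz2, 0.16 for Arhgdib, 0.80 for Coro1a, 0.39 for H2-Ab1, 0.64 for H2-DMb2 and 0.00 for Mzb1.

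**Figure D4:**
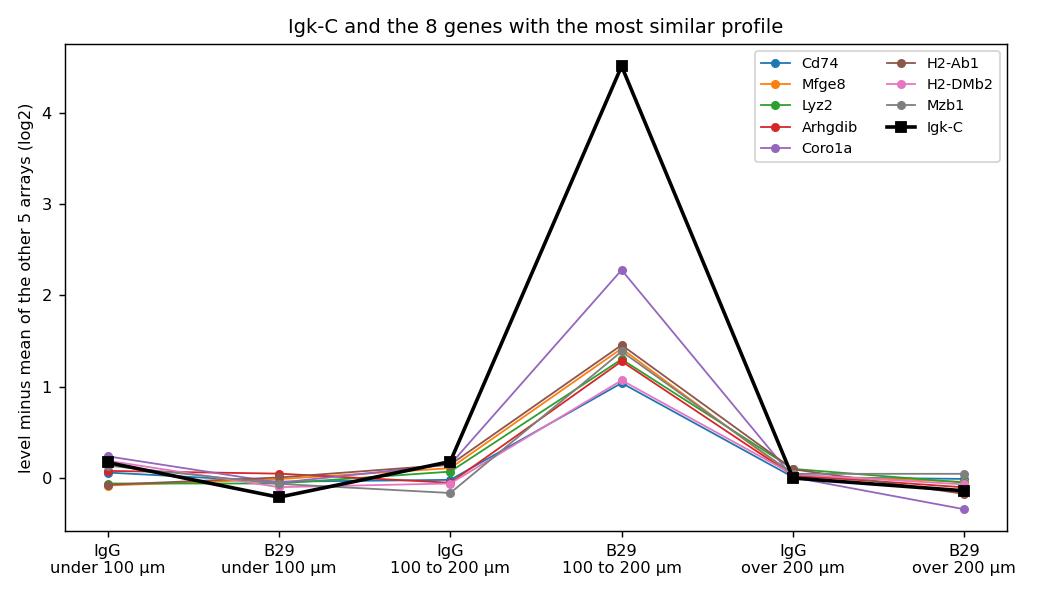
Log2 level minus the mean of the other 5 arrays (vertical axis) on each array for Igk-C (black squares) and the 8 named genes with the most similar profile (coloured circles). All lines peak on the B29 array of 100 to 200 µm, and on the other arrays they stay far closer to 0.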

How the data were processed

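RNA of the 6 islet samples was hybridised to Illumina mouse bead arrays. The deposited raw table gives each probe's intensity and its detection p-value on every array, neither background-corrected nor normalized. The authors deposited log2 values, made with limma 3.34.9 per the submitters' processing notes. Normalizing the raw intensities again with neqc (limma 3.58.1, R 4.3.3, offset 16) gave values within 0.00037 of them. Of 45281 probes 22 lacked a numeric signal. Names came from the platform's probe table and RefSeq. Probes with detection p under 0.05 on at least 2 arrays (16774) entered limma fits (lmFit, eBayes) with treatment and diameter class as factors. Benjamini-Hochberg adjustment was set at 0.05. On simulated data 11.11% of the calls were false for large against small islets, and 17.07% for B29 against IgG outside the 100 to 200 µm class. In the same order, 98% and 100% of 2-fold changes and 22% and 40% of 1.5-fold changes were recovered. The simulated noise was independent and Gaussian with the eBayes variances, without class effects, and all changes went upwards. The recovery does not hold for Igk-C and Cd52, whose standard errors for large against small islets were 0.92 and 0.57. Within a class, probes at least 2-fold apart were counted without a test. The summed level of a list adds the linear values of 1 probe per gene.

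The members and marker lists were chosen with earlier results of these data known. The genes named were all members, the other immunoglobulin genes that were detected, and the 8 with a profile most like Igk-C. For some lists, up to 4 of the brightest genes detected on at least 2 arrays were also named. Others, among them all B cell genes of the list that were detected and genes never detected, were named after their values were seen. Alternatives were other scalings, background correction, filters, eBayes settings, factors and arrays left out. With 1 array per group, p-values for treatment measure agreement between diameter classes, and those for islet size measure agreement between the treatments. Neither kind measures agreement between mice.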

Additional observations from a re-analysis of the deposited data

Results flagged for a closer look

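Igk-C and Cd52 had opposite directions in different diameter classes. The log2 ratio of B29 to IgG for Igk-C was -0.38 in islets under 100 µm and -0.14 in those over 200 µm, against 4.33 in those of 100 to 200 µm. For Cd52 it was -0.36 and -0.53, against 2.35. Each value is 1 array against 1, so the difference between classes was not tested.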

How the results depend on the processing

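All 48 log2 ratios recomputed for the 12 detected probes in the 100 to 200 µm class under other scalings and background corrections were above 0. The probes of these genes at least 2-fold brighter there numbered 10, and 11 with cyclic loess or median centring, but 5 without background correction, and those of all probes went from 88 to 22. The split of brighter against dimmer probes was 88 to 10, and 129 to 2 with median centring, where the median of all probes moved to 0.079. With values not detected at their limit, chosen after seeing the data, the counts were 8 and 76. Igk-C and Cd52 passed in none of the fits under the settings run. Their size differences changed sign without the IgG array under 100 µm (1.19 for Igk-C, 0.46 for Cd52) or the B29 array over 200 µm (1.01, 0.58). Without those arrays the treatment factor rests partly on the 100 to 200 µm pair that picked the genes, so nothing is read from the sign change. Over all probes, the count for large against small islets was 89, and 5 with median centring, 0 without background correction and 0 without a filter. It ran from 0 to 224 when 1 array was left out: 0 without B29 under 100 µm, 5 without IgG under 100 µm, and 224 without IgG over 200 µm. The count for B29 over the 3 classes was 1, and 0 with cyclic loess, median centring, no background correction, no filter, or no diameter factor. It was 0 without the pair of arrays under 100 or of 100 to 200 µm, 3 without the pair over 200 µm, and 0 to 3 without 1 array. The causes of these changes in counts were not tested. No paired analysis was possible because each group holds 1 array, beyond the diameter class that stands as a factor in the fits. Leaving out arrays from the fit of 4 leaves no residual degrees of freedom and was not run, and without the pair under 100 or over 200 µm the size contrast cannot be formed. Signal close to background limits Cd22, Ms4a1 and the dimmer probes.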

Other observations

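Besides the genes described above, 7 named genes outside all marker lists had a probe at least 2-fold higher on the B29 array of 100 to 200 µm than on each other array on the values as they stood, and they were named after their values were seen. Il4i1, an enzyme of amino acid breakdown in antigen-presenting cells, stood at 6.10 with the others at 4.24 to 4.49. Hvcn1, a proton channel of B cells and phagocytes, stood at 5.62 (others 4.16 to 4.41), and Klhl6, a ubiquitin ligase adaptor of B cells, at 6.08 (others 4.32 to 4.98). Cd69, an early activation marker of lymphocytes, stood at 5.38 (others 4.21 to 4.32), and Ncf4, a subunit of the phagocyte NADPH oxidase, at 5.40 (others 4.24 to 4.40). The remaining genes were Igkv14-100 and Mfge8, given above. A further 6 probes of that kind had no gene name, and the one with the largest difference stood at 9.05 with the others at 4.37 to 4.50.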
